A study of Mus musculus with 6 samples.

Results

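The mitochondrial carriers of solute carrier family 25 were described across soleus, a mouse hindlimb muscle rich in slow, oxidative fibres. The members were all rows of the 6 expression tables whose gene name is Slc25a followed only by digits, which gave 47 of 43074 genes. The mKO group was soleus of StarD7 mKO mice (n = 3), a genotype read here as a muscle knockout of Stard7 because the labels do not spell out the abbreviation, and the WT group was soleus labelled WT, called control in the series' text (n = 3). No agent or further allele is named for either group. The Cre line or promoter behind the knockout, the age and sex of the mice and any floxed allele in the controls are not given in the sources used here. Stard7 encodes a protein that moves phosphatidylcholine into mitochondria.

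SLC25 carriers are nuclear-encoded proteins of the mitochondrial inner membrane that exchange nucleotides, phosphate, carboxylates, amino acids, acylcarnitines and cofactors between the cytosol and the matrix, with a few members in the outer membrane or in peroxisomes. Most are brought in by the carrier import route, in which small chaperones of the space between the membranes hand them to an insertion complex. In muscle the adenine nucleotide translocase passes ATP out of the matrix in exchange for ADP, the phosphate carrier supplies the phosphate for ATP synthesis, and the malate-aspartate carriers move the reducing power of cytosolic NADH inward.

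The tables gave TPM, a transcript level scaled to gene length and to the same fixed sum in each library. Stard7 stood at 21.8, 21.3 and 34.6 TPM in mKO libraries, against 87.5, 95.4 and 94.99 TPM in WT libraries. Whole reads, recovered for most genes from TPM and exon length, came to 42928382 to 47404691 in mKO libraries and 47171045 to 51287715 in WT libraries. The 37 mitochondrially encoded genes took 46.8 to 48.9% of TPM in mKO libraries and 42.1 to 45.1% in WT libraries, which left nuclear genes a smaller share of the fixed sum in mKO libraries. Muscle markers were abundant in every library, with 9 genes summing to 63340 to 67503 TPM in mKO libraries and 69670 to 74986 TPM in WT libraries. Acta1 and Ckm of this list were lower in every mKO library. Its slow fibre genes Tnnt1, Myh7, Tnni1, Atp2a2 and Tpm3 had fold changes (log2, mKO minus WT) of 0.23 to 0.26 with overlapping groups. Myh2 and Mb of the same list also overlapped, with fold changes (log2) of -0.33 and -0.05. None of the 9 was called. The 9 fast fibre markers were lower in every mKO library than in any WT library, as were 10.3% of all genes tested. They summed to 17502 to 23998 TPM in mKO libraries, against 31774 to 36675 TPM in WT libraries. Their fold changes (log2) ran from -6.73 for Mybpc2 to -0.55 for Mylpf. Of these, 3 were called, Mybpc2, Actn3 and Pvalb (limma, adjusted p = 8.37e-06, 1.42e-05 and 0.00466). These are bulk samples, in which fewer cells of a type and less RNA per cell cannot be told apart.

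No carrier gene passed the test for a difference between mKO and WT soleus. Of the 47 members, 38 reached at least 1 TPM in at least 3 libraries and were tested, and 9 did not. With limma on log2(TPM + 1), fitted across 12301 genes with Benjamini-Hochberg adjustment, 0 of 38 members were called at an adjusted p under 0.05, where 0.52% of all genes tested were called. At an unadjusted p under 0.05 there were 4 members, Slc25a4, Slc25a12, Slc25a13 and Slc25a28, or 10.5% of those tested, against 10.7% of all genes. The fold changes (log2, mKO minus WT) ran from -0.30 to 0.32, with 21 members below 0 and 17 above. Their median was -0.02, beside -0.01 over all genes tested.

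The intervals bound the sizes that these 6 libraries allow with TPM as deposited, and they do not cover the choice of scaling. The 95% interval of the fold change, taken gene by gene, lay within 0.5 of 0 on the log2 scale for 35 of 38 members (92.1%), and this held for 85.1% of all genes tested. The exceptions were Slc25a13, Slc25a22 and Slc25a25. All 38 intervals lay within 1 of 0, which is a 2-fold difference. The added pseudocount of 1 TPM draws low genes toward 0, and with 0.1 in its place 32 members stayed within 0.5. Members whose groups did not overlap were 3 of 38, all lower in mKO: Slc25a4, Slc25a12 and Slc25a28. That is 7.89% of the members, against 10.3% of all genes with every mKO library below every WT library. No member had every mKO library above every WT library, as 5.67% of all genes did.

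**Figure D1:**
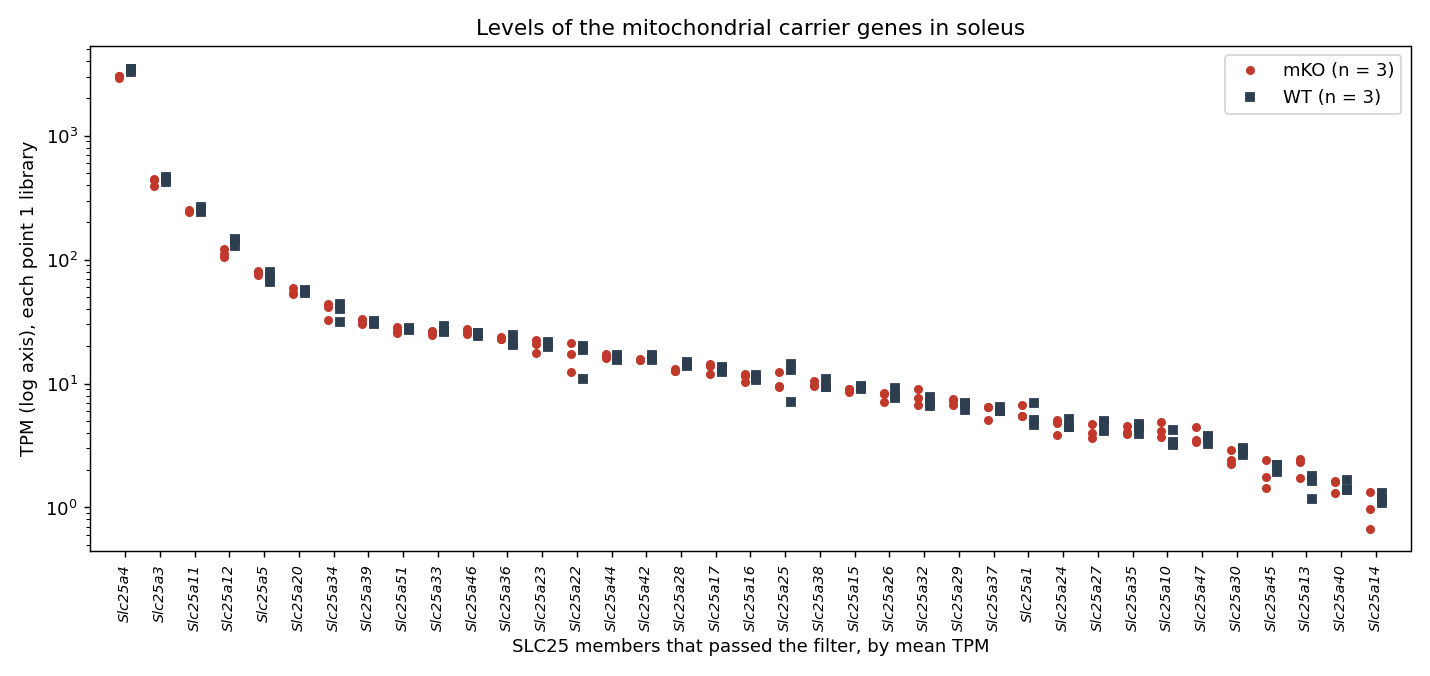
TPM of 37 of the 38 tested carrier genes on a log axis, each point 1 library, with mKO as circles left of WT squares. Slc25a4 lies between 2940 and 3464 TPM in the 6 libraries, and 17 of the genes average between 1 and 10 TPM.

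Adenine nucleotide carriers led the family. Slc25a4, the ADP/ATP translocase of heart and skeletal muscle, had 3028, 2940 and 3044 TPM in mKO libraries, against 3297, 3464 and 3436 TPM in WT libraries. Every mKO library was below every WT library, and the gene ranked 16th among nuclear genes by mean TPM. Its means were 3004 ± 55.8 TPM in mKO and 3399 ± 89.8 TPM in WT (SD, n = 3 each). The log2 fold change was -0.18 (SE 0.05, 95% interval -0.29 to -0.06) and did not pass the test (limma, adjusted p = 0.229). With mitochondrially encoded genes left out and the rest rescaled, the fold change was -0.06 (adjusted p = 0.618) and the groups overlapped. The median of all genes under that scaling was 0.09. With each library scaled by the median of its gene ratios instead, the fold change was -0.17 (limma, adjusted p = 0.437). Every mKO library then stayed below every WT library.

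Slc25a5, the translocase isoform used widely across tissues, had 77.6, 81.3 and 75.2 TPM in mKO libraries, against 66.4, 71.0 and 78.9 TPM in WT libraries. The groups overlapped through the third WT library, and the log2 fold change was 0.11 (SE 0.07, limma, adjusted p = 0.637). The isoform of germ cells, Slc25a31, had at most 8 reads in a library. Of the ATP-Mg/phosphate carriers, which set the size of the matrix adenine nucleotide pool, Slc25a23, Slc25a24 and Slc25a25 were tested and Slc25a41 had at most 2 reads in a library. Slc25a25, a calcium-responsive carrier of this kind, had the largest relative spread among WT libraries of the tested members, with 9.63, 12.3 and 9.40 TPM in mKO libraries, against 14.5, 7.07 and 12.9 TPM in WT libraries. The mKO values lay inside the WT range.

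The malate-aspartate carriers held the lowest and the highest fold change of the tested members. Slc25a12, the calcium-regulated aspartate/glutamate carrier of muscle and brain, had 111, 105 and 122.5 TPM in mKO libraries, against 129, 143 and 147 TPM in WT libraries. All mKO libraries were below all WT libraries. The means were 113 ± 8.73 TPM in mKO and 139.7 ± 9.66 TPM in WT (SD, n = 3 each), with a log2 fold change of -0.30 (SE 0.07, 95% interval -0.48 to -0.13). It was not called (limma, adjusted p = 0.177), and over the alternatives tried the adjusted p ran from 0.1005 to 0.574. With mitochondrially encoded genes left out its fold change was -0.19 (adjusted p = 0.268) and the groups overlapped. With median-of-ratios scaling it was -0.29 (limma, adjusted p = 0.303) and the groups stayed apart.

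Slc25a13, the aspartate/glutamate carrier best known from liver, had 2.31, 2.44 and 1.74 TPM in mKO libraries, against 1.17, 1.64 and 1.80 TPM in WT libraries. The third mKO library lay below the third WT library, so the groups overlapped. It rested on 103 to 202 reads a library, and its log2 fold change was 0.32 (SE 0.14, 95% interval 0.004 to 0.64, limma, adjusted p = 0.465). Slc25a11, the oxoglutarate/malate carrier, had 246, 244 and 252 TPM in mKO libraries, against 243, 257 and 266 TPM in WT libraries. Its groups overlapped, with a log2 fold change of -0.05 (adjusted p = 0.814) that turned to 0.07 with mitochondrially encoded genes left out.

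The pairs Slc25a4 with Slc25a5 and Slc25a12 with Slc25a13 carry the same substrates at very different levels in this muscle, and their promoters are shown for that reason. Of the 47 members, 36 matched the RefSeq promoter table (build GRCm38.p6), which gives 250 bases before and 50 bases after each annotated start. The windows lie at chr8:46211013-46211312 on the minus strand for Slc25a4, chrX:36795347-36795646 on the plus strand for Slc25a5, chr2:71367706-71368005 on the minus strand for Slc25a12, and chr6:6217124-6217423 on the minus strand for Slc25a13. They are printed 5′ to 3′ along each gene, and capitals mark 3 short motifs on either strand. One is TATAA, the letters of a TATA element, and another is the box searched as CCAAT. The last is the GC box, searched as GGGCGG.
Slc25a4: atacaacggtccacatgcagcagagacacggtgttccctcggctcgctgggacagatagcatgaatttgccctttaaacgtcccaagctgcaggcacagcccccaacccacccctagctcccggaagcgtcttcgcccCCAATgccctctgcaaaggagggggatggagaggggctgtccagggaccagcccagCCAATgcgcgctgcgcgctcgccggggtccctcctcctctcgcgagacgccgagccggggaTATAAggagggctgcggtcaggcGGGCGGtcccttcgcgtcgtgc
Slc25a5: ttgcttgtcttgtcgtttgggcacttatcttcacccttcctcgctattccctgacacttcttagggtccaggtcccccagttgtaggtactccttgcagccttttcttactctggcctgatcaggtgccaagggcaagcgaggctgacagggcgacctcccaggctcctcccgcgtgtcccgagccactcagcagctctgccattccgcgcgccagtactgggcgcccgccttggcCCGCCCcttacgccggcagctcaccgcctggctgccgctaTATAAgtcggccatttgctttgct
Slc25a12: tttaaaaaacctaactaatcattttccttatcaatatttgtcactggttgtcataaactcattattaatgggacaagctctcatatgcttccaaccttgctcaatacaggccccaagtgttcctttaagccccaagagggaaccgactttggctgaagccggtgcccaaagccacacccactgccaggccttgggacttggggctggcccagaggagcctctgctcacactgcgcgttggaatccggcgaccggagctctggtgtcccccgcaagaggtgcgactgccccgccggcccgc
Slc25a13: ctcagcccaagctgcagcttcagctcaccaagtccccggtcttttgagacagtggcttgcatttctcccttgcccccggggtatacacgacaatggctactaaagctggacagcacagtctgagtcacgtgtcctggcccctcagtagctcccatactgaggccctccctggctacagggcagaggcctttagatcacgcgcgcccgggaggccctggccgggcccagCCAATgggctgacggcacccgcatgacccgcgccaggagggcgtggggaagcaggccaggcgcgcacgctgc

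Both translocase windows held 1 TATAA and 1 GGGCGG, and the Slc25a4 window also held 2 CCAAT. The TATAA began at position 6 after the annotated start for Slc25a4 and at position 27 after it for Slc25a5, not upstream of it, and the Slc25a4 GGGCGG began at position 29. The Slc25a12 window held none of these letters, and the Slc25a13 window held 1 CCAAT. Of the 32851 promoters of the table, 24.9% held TATAA, as did 5 of the 46 entries of this family. CCAAT was in 37.4% of all promoters and in 22 family entries, and GGGCGG was in 35.7% of all and in 38 family entries. CANNTG, the letters of an E-box, was in 72.3% of all promoters and in each of the 4 printed windows, once for Slc25a4, 3 times for Slc25a5, 2 times for Slc25a12 and once for Slc25a13. AAGGTCA, a nuclear receptor half-site, was in 4.72% of all promoters, in 1 family entry and in none of the 4 windows. None of these matches overlapped another motif marked in capitals, and some family genes have more than 1 entry.

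Ratios between the members of a pair within a library do not depend on how that library was scaled. The ratio of Slc25a4 to Slc25a5 was 39.03, 36.2 and 40.5 in mKO libraries, against 49.7, 48.8 and 43.5 in WT libraries. It was lower in every mKO library, with means of 38.6 ± 2.19 in mKO and 47.3 ± 3.30 in WT (SD, n = 3 each), a log2 difference of -0.29. The ratio of Slc25a12 to Slc25a13 was 48.1, 43.1 and 70.5 in mKO libraries, against 110, 87.5 and 81.8 in WT libraries. It too was lower in every mKO library, by a log2 difference of -0.81, with the low read counts of Slc25a13 beneath it. Slc25a12 and Slc25a13 held the lowest and the highest fold change of the tested members, and neither was called. The other 3 pairs overlapped between groups: Slc25a37 to Slc25a28, Slc25a39 to Slc25a40 and Slc25a22 to Slc25a18. The ratios use TPM with no pseudocount, so their log2 differences are not on the log2(TPM + 1) scale of the fold changes. No test was made on the ratios, and how often ratios of other gene pairs separate was not counted. No source used here says how reads shared by related sequences were assigned.

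**Figure D2:**
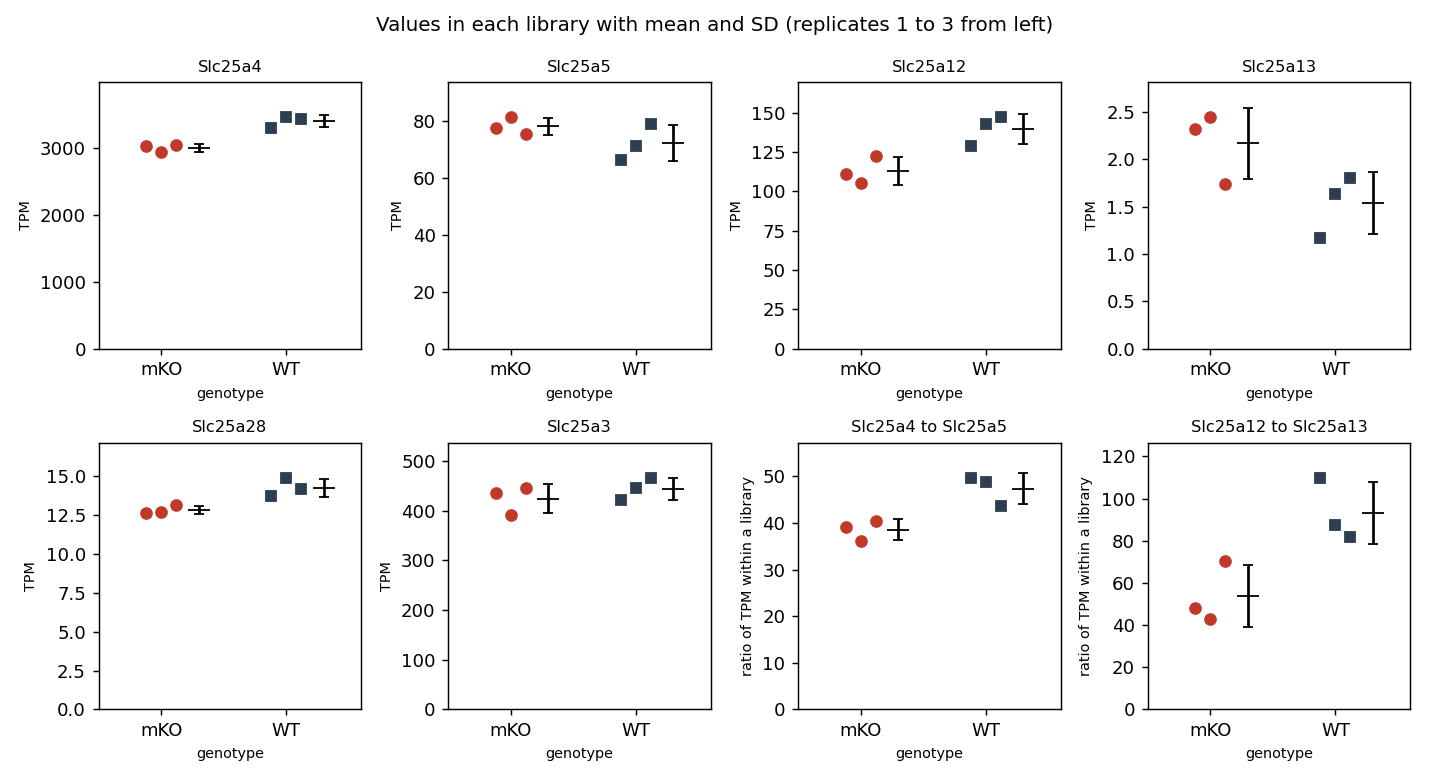
TPM in each library for Slc25a4, Slc25a5, Slc25a12, Slc25a13, Slc25a28 and Slc25a3, and the ratio within a library for both pairs, with mKO left of WT and the mean and SD beside the points. Slc25a4, Slc25a12, Slc25a28 and both ratios are lower in every mKO library than in any WT library, while the other 3 genes overlap.

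The share of the family's transcripts held by Slc25a4 was 69.7, 69.6 and 69.7% of the summed carrier TPM in mKO libraries, against 71.5, 71.7 and 71.2% in WT libraries. Slc25a5 held 1.81 ± 0.103% in mKO and 1.51 ± 0.105% in WT (SD, n = 3 each), higher in every mKO library. The same held for Slc25a11, at 5.74 ± 0.0570% in mKO and 5.37 ± 0.129% in WT. It held too for Slc25a20, at 1.28 ± 0.0754% in mKO and 1.17 ± 0.0517% in WT, while Slc25a3 and Slc25a12 overlapped. Shares add up to a fixed whole, so a lower share of Slc25a4 leaves more to the other members. The whole family summed to 4346, 4226 and 4366 TPM in mKO libraries, against 4614, 4829 and 4829 TPM in WT libraries, and these groups did not overlap. Without Slc25a4 the sum was 1309 ± 19.9 TPM in mKO and 1358 ± 38.4 TPM in WT, and the groups overlapped. As a share of TPM without mitochondrially encoded genes the family made up 0.830 ± 0.0302% in mKO and 0.843 ± 0.0325% in WT, also overlapping.

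Phosphate and acylcarnitine transport showed small differences that lay inside the spread between libraries. Slc25a3, the phosphate carrier, had 436, 391 and 447 TPM in mKO libraries, against 422, 445 and 466 TPM in WT libraries. Its log2 fold change was -0.07 (SE 0.07, limma, adjusted p = 0.785) and turned to 0.05 with mitochondrially encoded genes left out. Slc25a20, which exchanges acylcarnitines for carnitine and so admits long-chain fatty acids to oxidation, had 59.4, 53.1 and 53.4 TPM in mKO libraries, against 56.3, 54.0 and 56.6 TPM in WT libraries. Its groups overlapped, and its log2 fold change was -0.01 (95% interval -0.15 to 0.13, adjusted p = 0.977), against 0.11 with mitochondrially encoded genes left out.

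The carriers of other nucleotides and cofactors numbered 9, all tested, with 5 below 0 and 4 above and fold changes (log2) of -0.09 to 0.11. Slc25a51, the mitochondrial NAD carrier, was the highest of them, with 27.1, 28.4 and 25.5 TPM in mKO libraries, against 27.9, 26.9 and 27.4 TPM in WT libraries. The WT values lay inside the mKO range. The others included the pyrimidine nucleotide carriers Slc25a33 and Slc25a36, the coenzyme A carriers Slc25a16 and Slc25a42, the S-adenosylmethionine carrier Slc25a26, Slc25a32, linked to folate and FAD, and the peroxisomal Slc25a17.

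Both tested carriers of other carboxylates were above 0. Slc25a1, which exports citrate for fatty acid synthesis, had 5.46, 6.77 and 5.43 TPM in mKO libraries, against 6.95, 4.61 and 5.07 TPM in WT libraries. The mKO values lay inside the WT range. Slc25a10, the dicarboxylate carrier, had 4.89, 4.16 and 3.73 TPM in mKO libraries, against 3.20, 4.23 and 3.40 TPM in WT libraries, with a log2 fold change of 0.19 (limma, adjusted p = 0.640). The oxodicarboxylate carrier Slc25a21 had 2 reads, in 1 WT library.

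Amino acid carriers had 5 of 7 members tested, with 1 below 0 and 4 above (log2, -0.06 to 0.10). Slc25a22, a glutamate carrier, had 17.4, 21.3 and 12.4 TPM in mKO libraries, against 18.6, 20.1 and 10.8 TPM in WT libraries. It was low in the third library of both groups, which left a wide interval (-0.52 to 0.63). Slc25a34, a carrier with no agreed substrate, had the same shape, with 41.6, 43.9 and 32.8 TPM in mKO libraries, against 40.3, 43.7 and 31.6 TPM in WT libraries. The labels do not say that replicates with the same number share anything. The others tested were Slc25a15 (ornithine), Slc25a29 (basic amino acids), Slc25a38 (glycine, used for heme synthesis) and Slc25a44 (branched-chain amino acids), whose intervals all included 0.

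Of the iron carriers, Slc25a28, a mitoferrin, had 12.7, 12.7 and 13.1 TPM in mKO libraries, against 13.7, 14.9 and 14.2 TPM in WT libraries. Every mKO library was below every WT library, and the log2 fold change was -0.14 (SE 0.06, 95% interval -0.28 to -0.002, limma, adjusted p = 0.465). With mitochondrially encoded genes left out it was -0.03 and the groups overlapped. With median-of-ratios scaling it was -0.13 (limma, adjusted p = 0.477) and the groups stayed apart. Slc25a37, the mitoferrin of red cell precursors, had a log2 fold change of -0.03 with overlapping groups.

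Slc25a39, which brings glutathione into the matrix, had 33.3, 30.5 and 31.8 TPM in mKO libraries, against 31.9, 31.2 and 30.5 TPM in WT libraries, and its relative Slc25a40 averaged 1.51 ± 0.181 TPM in mKO and 1.47 ± 0.159 TPM in WT (SD, n = 3 each). Neither differed beyond the spread between libraries. The uncoupling-protein-like members Slc25a14, Slc25a27 and Slc25a30 were all below 0 (log2, -0.15 to -0.13) and all overlapped between groups. Slc25a27 was the highest of them, with 3.66, 4.03 and 4.70 TPM in mKO libraries, against 4.97, 4.87 and 4.11 TPM in WT libraries. Slc25a46, an outer membrane member tied to mitochondrial fission and fusion, had 25.03, 27.7 and 26.0 TPM in mKO libraries, against 24.4, 25.6 and 25.5 TPM in WT libraries. These values overlapped, with a log2 fold change of 0.06.

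The 21 tested members not given by library lay between 0.677 and 29.1 TPM, had fold changes (log2) of -0.15 to 0.11 and adjusted p of 0.682 or more. Of the 9 members under the filter, none exceeded 0.675 TPM in any library. Slc25a53, with no agreed substrate, had 55 to 96 reads a library and Slc25a18, a glutamate carrier, had 8 to 27, while Slc25a43 had at most 12 and the choline-linked Slc25a48 at most 2. Slc25a54 had 0 reads in every library, which allows up to 3 reads in each by counting error alone. Slc25a2, an ornithine carrier, had 0.218, 0.205 and 0.0743 TPM in mKO libraries, against 0.0643, 0 and 0 TPM in WT libraries. All its mKO values were higher, but it was too low to enter the test, its reads could not be recovered as whole numbers, and with no filter its adjusted p was 0.483 (limma).

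**Figure D3:**
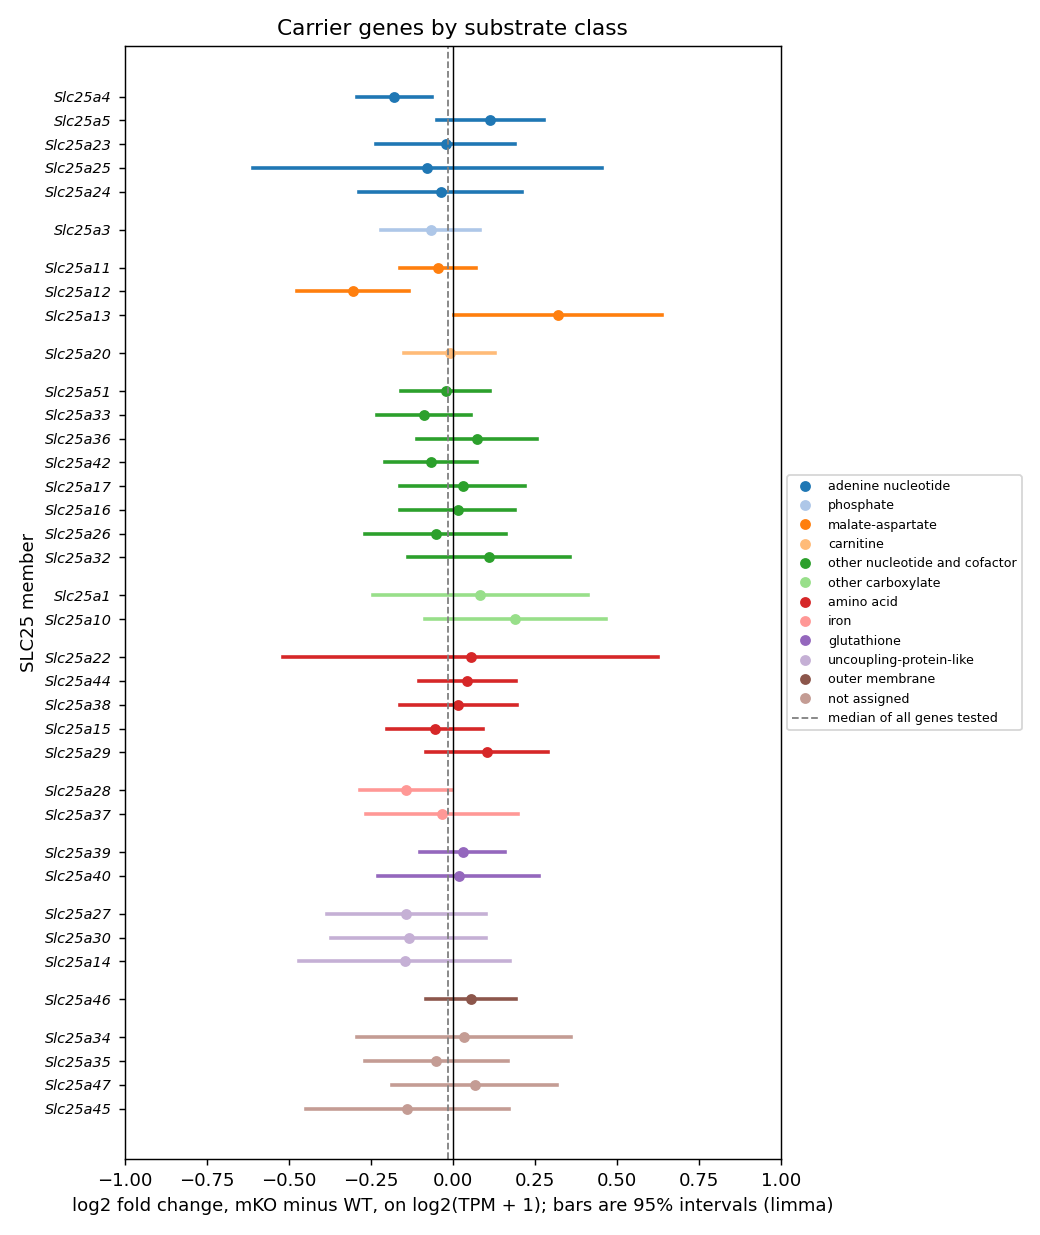
Log2 fold change (mKO minus WT, on log2(TPM + 1)) of 37 of the 38 tested members with 95% limma intervals, grouped and coloured by substrate class. Estimates run from -0.30 for Slc25a12 to 0.32 for Slc25a13, and the intervals of Slc25a22 and Slc25a25 are among the widest.

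Scaling set the direction of many of these small differences. With mitochondrially encoded genes left out, the median fold change (log2) over all genes was 0.0932 and over the members 0.0934, against -0.01 and -0.02 with TPM as deposited. The filter was applied again after that scaling and let 13502 genes through, so values for all genes under it are over a larger set. Under that scaling 0 of 38 members had every mKO library below every WT library, against 2.71% of all genes. The members with every mKO library above every WT library were then 6, Slc25a5, Slc25a13, Slc25a29, Slc25a39, Slc25a44 and Slc25a46, or 15.8% of the members, against 23.9% of all genes. None of these was called by limma under that scaling, with adjusted p of 0.178 or more for each of them. With median-of-ratios scaling the members lower in every mKO library were 4, Slc25a42 in addition to the other 3. That is 10.5% of the members, against 9.36% of the 12306 genes then tested.

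**Figure D4:**
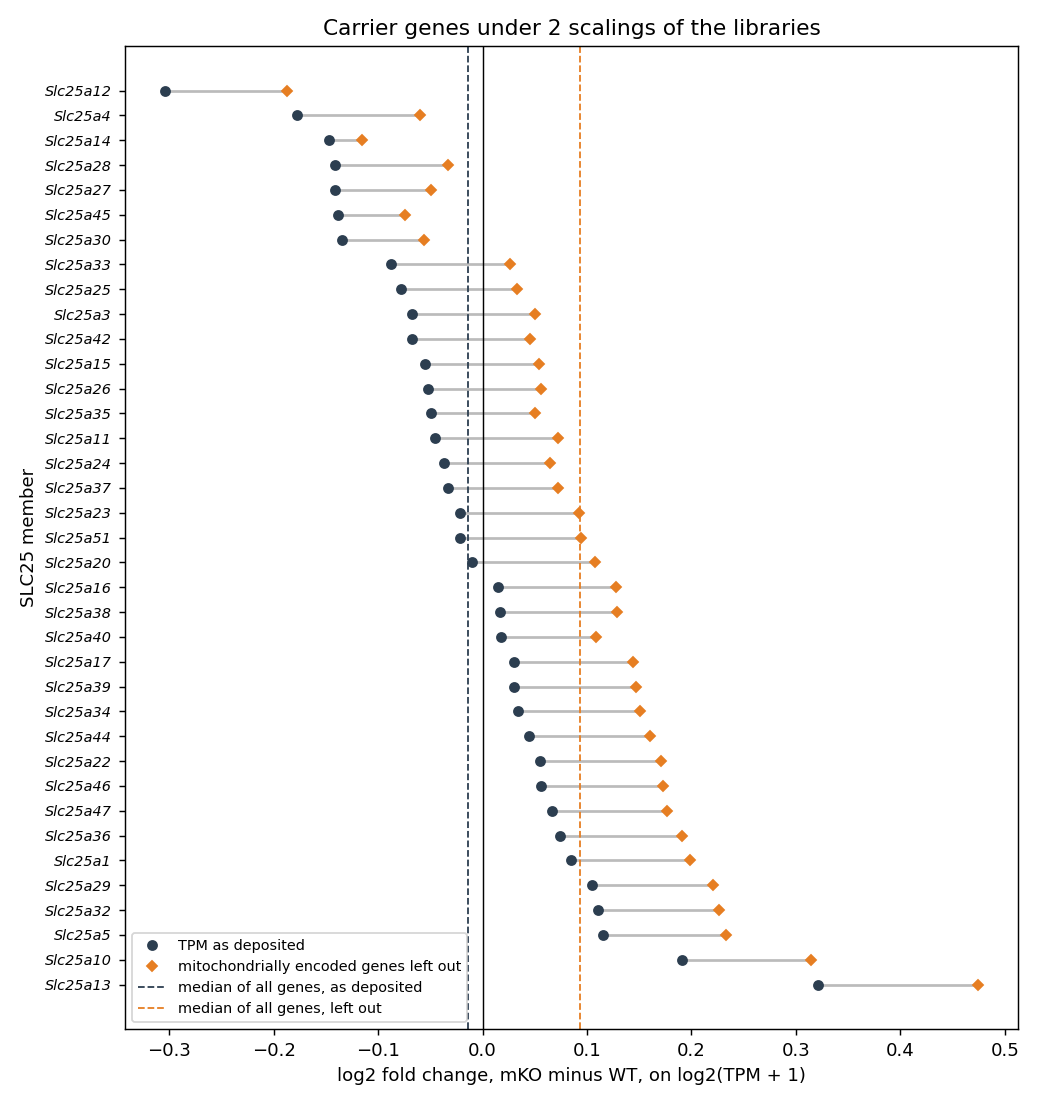
Log2 fold change (mKO minus WT) of 37 of the 38 tested members with TPM as deposited (circles) and with mitochondrially encoded genes left out (diamonds), with dashed lines at the median of all genes under each. Leaving out those genes moves members to the right, as it does the median of all genes to 0.0932.

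Genes that work with the carriers were read from the same fit, in 12 lists holding 107 tested genes. None was called by limma (0 of 107, against 0.52% of all genes), and 17 had an unadjusted p under 0.05 (15.9%, against 10.7% of all genes). Of them 64 were below 0 and 43 above, with a median fold change (log2) of -0.02. Every mKO library was below every WT library for 21 genes (19.6%, against 10.3% of all genes) and above for 4, Agk, Ak4, Gpx4 and Timm10 (3.74%, against 5.67%). With mitochondrially encoded genes left out, 3 genes, Crat, Prodh and Vdac1, had every mKO library below every WT library (2.80%, against 2.71%). There 26 genes had every mKO library above (24.3%, against 23.9%). Both shares of all genes are over the 13502 genes then tested. The fast fibre markers were lower in mKO libraries beside all of these values and those of the carriers, and their part in them was not tested.

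Among the partners of the adenine nucleotide carriers, Vdac1, the main channel of the outer membrane, averaged 992 ± 16.3 TPM in mKO and 1125 ± 14.7 TPM in WT (SD, n = 3 each), lower in every mKO library (log2 fold change -0.18, limma, adjusted p = 0.172). Ckmt2, the mitochondrial creatine kinase, averaged 3034 ± 91.3 TPM in mKO and 3097 ± 218 TPM in WT and overlapped. In the malate-aspartate shuttle, Mdh2, the matrix malate dehydrogenase, averaged 497 ± 19.3 TPM in mKO and 568 ± 36.7 TPM in WT, lower in every mKO library (adjusted p = 0.304). Its cytosolic partner Mdh1 averaged 987 ± 16.9 TPM in mKO and 957 ± 32.6 TPM in WT, with overlap. In the carnitine shuttle, Crat, the carnitine acetyltransferase, averaged 218 ± 11.8 TPM in mKO and 255 ± 4.09 TPM in WT, lower in every mKO library (adjusted p = 0.160). Cpt1b, the muscle carnitine palmitoyltransferase of the outer membrane, averaged 395 ± 21.4 TPM in mKO and 413 ± 21.9 TPM in WT and overlapped.

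Of the carrier import list 16 genes were tested, 9 below 0 and 7 above. Timm10, a chaperone that escorts carriers to the inner membrane, averaged 57.5 ± 1.57 TPM in mKO and 51.3 ± 0.943 TPM in WT. It was higher in every mKO library (log2 fold change 0.16, limma, adjusted p = 0.273), as was Agk. Tomm20 was lower in every mKO library (log2 fold change -0.12, limma, adjusted p = 0.552). Timm8b, the highest of the list, averaged 163 ± 13.6 TPM in mKO and 179 ± 8.57 TPM in WT and overlapped, as did the rest. Of 18 other inner membrane transporters, 11 were below 0 and 7 above, and of the pyruvate carrier's subunits Mpc1 averaged 336 ± 10.1 TPM in mKO and 339 ± 20.7 TPM in WT (log2 fold change -0.01, overlapping). Mpc2 averaged 59.6 ± 1.12 TPM in mKO and 65.7 ± 0.833 TPM in WT, lower in every mKO library (limma, adjusted p = 0.323). Gpx4, a glutathione-using peroxidase of lipids, averaged 271 ± 24.2 TPM in mKO and 234 ± 11.5 TPM in WT, higher in every mKO library (limma, adjusted p = 0.340). The other tested genes of the glutathione list overlapped. Bckdk, the kinase that restrains branched-chain keto acid oxidation, averaged 70.8 ± 3.37 TPM in mKO and 82.0 ± 1.64 TPM in WT. It was 1 of 4 genes lower in every mKO library among the 7 tested of its list. Of all genes tested, 10.3% were lower in every mKO library. Of the citrate list, Cs was lower in every mKO library and Idh2 overlapped. Of the 8 tested genes of the proline, ornithine and glutamate list, 4 were lower in every mKO library: Oat, Glud1, Aldh4a1 and Prodh. Nfs1 and Isca1, 2 of the 11 tested genes of the iron-sulfur list, were also lower in every mKO library. Iscu and Alas1, also among the highest of that list, overlapped. No gene of the coenzyme A, NAD and thiamine list was separated in either direction. With mitochondrially encoded genes left out, only Prodh of the genes named in this paragraph stayed lower in every mKO library. Agk, Ak4, Prodh and Tomm20 were named after their values were seen.

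Carriers of the same family that go by other names were set beside the members. Ucp3, the uncoupling protein of muscle, had 31.6, 59.2 and 31.5 TPM in mKO libraries, against 53.8, 61.4 and 31.0 TPM in WT libraries. It varied more within groups than between them (limma, adjusted p = 0.828). Mtch2, an outer membrane insertase, averaged 33.1 ± 0.535 TPM in mKO and 34.1 ± 0.349 TPM in WT. It was lower in every mKO library, as were 10.3% of all genes tested, with a log2 fold change of -0.04 (limma, adjusted p = 0.833). Mtch1 and Ucp2 overlapped. Ucp1, the uncoupling protein of brown fat, was above 0 in 1 mKO library and in no WT library, at 0.0597 TPM.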

How the data were processed

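Poly(A) RNA of soleus was sequenced in 6 libraries, 3 mKO and 3 WT, as paired reads, per the labels' protocols and the series' text. The authors deposited TPM per gene for each library, and per the submitters' processing notes the build was GRCm39; the aligner, counter and strand setting are not given in the sources used here. Whether libraries came from separate mice is given only as a number per group, so p-values measure the spread between these samples. TPM multiplied by GENCODE M21 exon length gave whole reads (within 0.05 of a read) in all libraries for 93.1% of 22729 genes.

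Genes with at least 1 TPM in at least 3 libraries were tested on log2(TPM + 1) with limma 3.58.1 in R 4.3.3 (trend on, genotype as the sole term, two-sided, Benjamini-Hochberg over all 12301 genes); tables were made in Python 3.11.15. The procedure was tested on simulated data with no shift of the mitochondrial share built in, so that run does not bear on the choice of scaling. Fold changes on this scale understate those of low genes. Values by library are given for members that were called or did not overlap, the 8 with the highest mean TPM, the highest of each substrate class, and any member under the filter with 1 TPM or more in a library. From the related lists come called genes, or else up to 4 of the highest mean. Slc25a2, Slc25a10 and Slc25a25 are shown beyond that rule, and Slc25a13 for its pair. Members and lists were chosen with earlier results of these data known, and an older gene name was used for one list member. Alternatives were another pseudocount, other filters, other scalings, a replicate block and leaving out each library. A few single-gene results are not reported here, while counts and medians are over all genes tested.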

Additional observations from a re-analysis of the deposited data

How the results depend on the processing

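No member and no gene of the related lists was called in any of the 12 other settings, and the lowest adjusted p of a member (limma) was 0.1005, for Slc25a12 without mKO replicate 3. Over all genes, 64 were called, 12 higher and 52 lower in mKO. The count was 6 with no filter, 41 with mitochondrially encoded genes left out (21 higher and 20 lower) and 21 with the replicate block. Leaving out 1 library gave 4 (without WT replicate 2) to 94 (without mKO replicate 3); it was 13 without mKO replicate 1, 26 without mKO replicate 2, 13 without WT replicate 1 and 12 without WT replicate 3. The numbers were not taken as pairing, because the labels do not say that same-numbered libraries share anything. Same-numbered libraries had deviations that correlated weakly, at 0.0950, 0.0474 and 0.131. Each library nevertheless correlated best with its own number, a hint from the data and not from the design. The median fold change (log2) of the members moved to 0.0934 with mitochondrially encoded genes left out.

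Of 38 tested members, 15 kept their sign in every setting and 23 did not. With mitochondrially encoded genes left out the fold change (log2) turned positive for Slc25a3 (0.0502), Slc25a11 (0.0718), Slc25a15 (0.0538), Slc25a20 (0.107), Slc25a23 (0.0926), Slc25a24 (0.0649), Slc25a25 (0.033), Slc25a26 (0.056), Slc25a33 (0.0266), Slc25a35 (0.0499), Slc25a37 (0.0724), Slc25a42 (0.0452) and Slc25a51 (0.0942). With median-of-ratios scaling it was 0.00255 for Slc25a20. With 1 library left out it ran from -0.0181 to 0.233 for Slc25a1, -0.029 to 0.0752 for Slc25a16, -0.0161 to 0.108 for Slc25a17, -0.0615 to 0.0181 for Slc25a20, -0.207 to 0.253 for Slc25a22, -0.0937 to 0.0728 for Slc25a23, -0.107 to 0.0609 for Slc25a24, -0.365 to 0.104 for Slc25a25, -0.104 to 0.0198 for Slc25a26, -0.0993 to 0.158 for Slc25a34, -0.085 to 0.0689 for Slc25a37, -0.0167 to 0.0795 for Slc25a38, -0.00176 to 0.0596 for Slc25a39, -0.0157 to 0.0792 for Slc25a40, -0.034 to 0.127 for Slc25a47 and -0.0568 to 0.0167 for Slc25a51. The cause was not tested. The tested member with the fewest reads, Slc25a14, had 32 to 71 a library.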
